A study of Mus musculus with 23 samples.

Results

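Capn6, Stk32a, Prkg2, Elfn2, Rcan1, Vgll2 and Rab7b are 7 mouse genes of different protein families that were taken, out of 35385 gene symbols in the deposited tables, because their messenger RNA was lower in SOX6-targeted than in control cells kept in differentiation medium. The choice used those values, so the difference in that medium is described here without a test, and tests were run on progenitors, on the difference between guides and on sorted cells. Whether any of the genes needs SOX6 directly was not measured.

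The study sequenced poly(A) RNA from 23 libraries of oligodendrocyte progenitor cells (OPCs) and oligodendrocytes (OLs) derived from mouse epiblast stem cells, pluripotent cells of the early embryo. The lines were EpiSC5 and 129O1, which the labels give as strain 129SvEv and strain 129S1/SvImJ without tying each library to a line. In the SOX6 experiment, OPCs carried the lentiviral CRISPRv2 vector with SOX6 guide 2, SOX6 guide 1 or a non-targeting control guide. All infected OPCs came from one starting batch, were selected in puromycin at 500 ng/mL for 96 hours and were later plated for 60 hours. Cells in differentiation permissive medium, which lacks the thyroid hormone T3, are called OLs here after their labels, although they were not sorted. These were 3 guide 2, 3 guide 1 and 3 control OL libraries. Cells in OPC growth medium gave 3 guide 2, 2 guide 1 and 3 control OPC libraries. A further 3 libraries of O1+ OLs and 3 of OPCs came from magnetically sorted cells without guides. The labels do not say whether replicates were separate infections, so p-values measure the spread between these libraries, which may be technical. Every library is bulk RNA from many cells, so fewer cells of a type and less RNA per cell cannot be told apart.

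SOX6 is a SOXD transcription factor, a DNA-binding protein with a high mobility group domain and no known activation domain of its own, best known for its work with SOX5 and SOX9 in cartilage. In the oligodendrocyte lineage it is found in progenitors and shapes when they differentiate. The 7 genes share no known pathway. Capn6 encodes a calpain that lacks the catalytic cysteine and binds microtubules. Stk32a encodes a little-studied serine/threonine kinase. Prkg2 encodes the membrane-bound cGMP-dependent kinase, which mouse growth plate cartilage needs for normal bone length. Elfn2 encodes a leucine-rich repeat membrane protein that binds glutamate receptors across synapses, Rcan1 an inhibitor of the phosphatase calcineurin, Vgll2 a cofactor of TEAD transcription factors known from skeletal muscle, and Rab7b a small GTPase of endosomes and the trans-Golgi network.

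The guides are shown because both hit coding exons of Sox6, so each gives its own test of the same target. Guide 1 matched chr7:115580612-115580631 (GRCm38, exon 9 of 17) and guide 2 matched chr7:115512747-115512766 (exon 14 of 17). Both sites were followed by GGG, a PAM of the Cas9 used.
SOX6 guide 1: ttgacggaatgaactgtacg
SOX6 guide 2: agaacacgctttgagaacct

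Sox6 RNA itself was checked first, in CPM (estimated counts scaled to library size after TMM scaling of all 17 libraries together). In OPCs it was at 74.4, 67.4 and 86.4 CPM with guide 2 and 88.9 and 75.0 CPM with guide 1, against 165.4, 200.8 and 233.8 CPM in control OPCs. Sox6 fell in targeted OPCs (log2 fold change -1.32, SE 0.127, edgeR quasi-likelihood adjusted p = 0.0015). In OLs it was at 254.7, 252.7 and 255.2 CPM with guide 2 and 258.6, 157.2 and 241.7 CPM with guide 1, against 416.6, 437.3 and 387.4 CPM in control OLs, so message remained in every targeted library and the groups did not overlap at either stage.

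Library depth ran between 13967438 and 16958611 estimated counts in OPCs and between 13124580 and 18551822 in OLs. A few libraries stood apart in how their levels moved with transcript length. Across 9735 genes, the deviation of guide 1 OL library B from its group correlated with length at rho = -0.553, against 0.478 and 0.515 in guide 1 OL libraries A and C. Control OPC libraries A and C had -0.398 and 0.409 across 9529 genes. Most results on the 7 genes, and the named calls among their relatives, are also given without guide 1 OL library B or without control OPC libraries A and C. Exceptions are Rcan1 and Rab7b in OPCs, which enter only the count of calls, and Vgll2 and Rcan1 between guides.

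RefSeq promoter windows (GRCm38.p6), the 250 bases before a transcript start, were read for 4 of the 7 genes. Stk32a was left out of this reading by hand, and no window was at hand for Prkg2 and Rab7b. The window of Capn6 and both windows of Rcan1 are printed because Capn6 lies among the genes whose libraries agreed most closely and Rcan1 has alternative starts, the inner of which is known to answer to calcineurin and NFAT. Capitals mark GGAAA or its reverse complement TTTCC, the core that NFAT factors bind; the search covered both strands and no hits overlapped. The second motif searched was ACAAT with its reverse complement ATTGT, a core bound by SOX factors.
Capn6, chrX:143827413-143827662, minus strand: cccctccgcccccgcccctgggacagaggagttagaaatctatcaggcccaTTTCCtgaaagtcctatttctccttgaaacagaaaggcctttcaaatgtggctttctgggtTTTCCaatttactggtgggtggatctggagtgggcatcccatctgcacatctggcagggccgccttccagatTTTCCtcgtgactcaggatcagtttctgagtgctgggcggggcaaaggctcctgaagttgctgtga
Rcan1 inner start, chr16:92400079-92400328, minus strand: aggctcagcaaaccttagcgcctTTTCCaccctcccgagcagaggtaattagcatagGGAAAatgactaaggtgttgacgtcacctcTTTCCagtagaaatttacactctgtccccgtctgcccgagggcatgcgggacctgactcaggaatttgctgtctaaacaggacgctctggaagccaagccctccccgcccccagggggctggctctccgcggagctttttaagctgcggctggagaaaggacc
Rcan1 outer start, chr16:92466170-92466419, minus strand: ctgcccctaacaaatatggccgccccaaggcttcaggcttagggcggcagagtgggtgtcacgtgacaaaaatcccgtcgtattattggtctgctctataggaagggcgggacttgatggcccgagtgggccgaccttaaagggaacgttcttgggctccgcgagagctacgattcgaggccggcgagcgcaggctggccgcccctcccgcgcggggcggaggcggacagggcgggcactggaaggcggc
The NFAT core occurred 3 times before Capn6, 3 times before the inner Rcan1 start, 4 times before Vgll2 and 0 times before Elfn2 and the outer Rcan1 start. At least 1 copy was present in 55.6% of 32851 RefSeq windows of the same length. The SOX core was in 0 of the 5 windows, against 27.7% of all windows. The 5 windows held 53.6% to 73.6% G and C, against a median of 52.4% over all windows, and Stk32a is not among them. Nothing is therefore read from the 0. The motif hits are letters in a short window and say nothing of binding elsewhere.

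The genes lie on 7 different chromosomes (GRCm38, GENCODE M21): Capn6 at chrX:143802231-143827414, Stk32a at chr18:43207583-43318682, Prkg2 at chr5:98929773-99037351, Elfn2 at chr15:78667331-78718771, Rcan1 at chr16:92391953-92470867, Vgll2 at chr10:52022502-52028471 and Rab7b at chr1:131688695-131715439. Exons of Capn6 overlap those of Gm47298 on the same strand, and exons of Elfn2 overlap 1700041B01Rik on the opposite strand. The counts of each pair could include shared reads, for Elfn2 because the libraries carry no strand information and for Capn6 because both genes lie on 1 strand. Of their 31-base words, 132 of 7723 for Capn6 (1.71%) and 180 of 8076 for Elfn2 (2.23%) occur in transcripts of other annotated genes.

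In differentiation medium the 7 genes differed in how far their mean over both guides stood below control. Capn6, Stk32a, Prkg2 and Vgll2 stood in targeted OLs at between 19.2% and 22.2% of their control OL mean. Elfn2 stood at 27.0%, Rab7b at 53.6% and Rcan1 at 2.42%, the last from very uneven libraries. The order depended on the guide. With guide 1 alone Elfn2 stood at 21.6%, below Vgll2 at 22.3%, and with guide 2 alone Prkg2 stood at 25.9%. Sox6 RNA itself stood at 57.2%.

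Capn6 had 11.5, 9.22 and 10.8 CPM in guide 2 OLs and 8.0, 6.87 and 8.49 CPM in guide 1 OLs, against 46.4, 49.5 and 46.9 CPM in control OLs. Control libraries agreed to within a few CPM and every targeted library lay far below them. The ratio of means was 5.20-fold lower.

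Stk32a had 10.8, 11.7 and 11.4 CPM in guide 2 OLs and 9.35, 6.87 and 8.11 CPM in guide 1 OLs, against 48.6, 47.5 and 47.0 CPM in control OLs. Its group means ran in the same order as those of Capn6 (Pearson r = 0.990 over the 17 libraries, which share 6 groups and both stages). Within groups the libraries did not always rank alike. Guide 2 OL library B had the lowest Capn6 of its group, at 9.22 CPM, but the highest Stk32a, at 11.7 CPM. Stk32a means were 4.91-fold lower in targeted OLs.

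Prkg2 had 3.91, 4.87 and 4.87 CPM in guide 2 OLs and 3.14, 3.57 and 3.06 CPM in guide 1 OLs, against 20.5, 16.7 and 15.6 CPM in control OLs. In targeted OLs the kinase remained at the level of targeted OPCs, with means of 3.90 and 3.74 CPM, while control OLs averaged 17.6 CPM and control OPCs 7.02 CPM.

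Vgll2 had 2.26, 1.26 and 2.64 CPM in guide 2 OLs and 1.91, 3.30 and 2.60 CPM in guide 1 OLs, against 11.7, 12.4 and 10.8 CPM in control OLs. Targeted OLs lay within the range of the OPC groups for this gene, and control OLs were the only group apart from the other 5.

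Elfn2 had 26.2, 26.9 and 23.3 CPM in guide 2 OLs and 17.9, 13.3 and 19.7 CPM in guide 1 OLs, against 78.3, 74.4 and 83.0 CPM in control OLs. It had the highest control OL mean in CPM of the 7, a value that is not set per transcript length. Guide 2 libraries all lay above guide 1 libraries.

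Rab7b had 6.67, 6.24 and 6.05 CPM in guide 2 OLs and 4.18, 5.72 and 4.67 CPM in guide 1 OLs, against 9.74, 10.5 and 11.0 CPM in control OLs. Its means were 1.87-fold lower, the smallest difference of the 7, and the groups still did not overlap.

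Rcan1 had 1.30, 0 and 0 CPM in guide 2 OLs and 0, 0.475 and 2.52 CPM in guide 1 OLs, against 24.6, 4.84 and 59.3 CPM in control OLs. The control libraries alone spanned more than the whole range of most other members. Its estimated counts were 424, 76.8 and 823 in control OLs, and several were not whole numbers. None of its 3070 31-base words occurs in transcripts of another annotated gene, and the source of the unevenness was not tested.

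**Figure D1:**
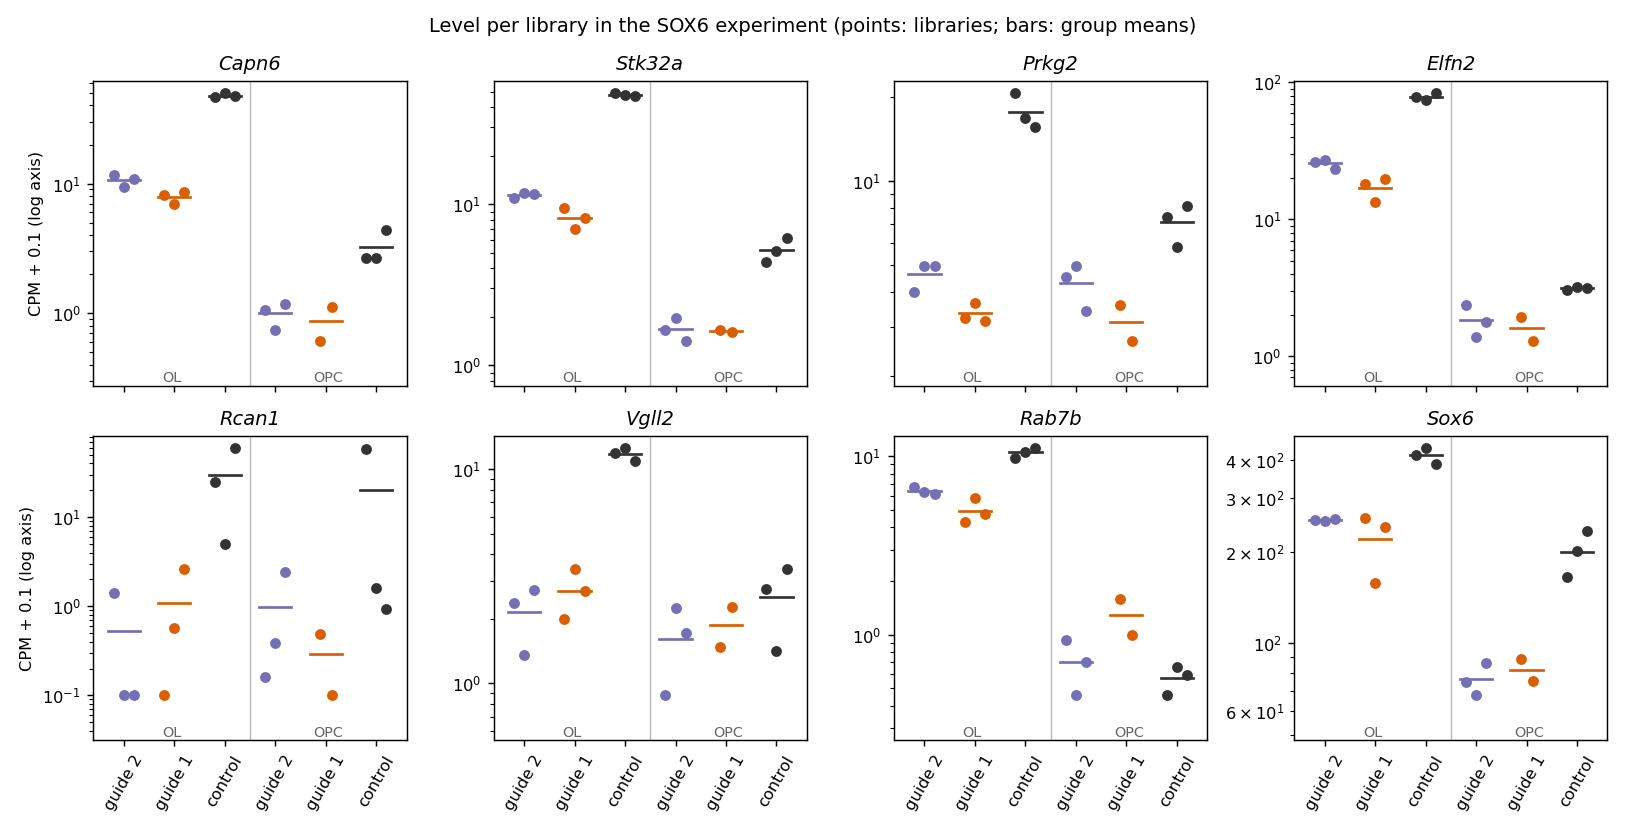
Level of each of the 7 genes and of Sox6 in the SOX6 experiment. The vertical axis is CPM + 0.1 on a log axis, points are libraries, bars are group means, and OLs stand left of OPCs. Control OLs are the highest group in each panel by mean, and Rcan1 has controls spread from 0.837 to 59.3 CPM.

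All 7 genes had every targeted OL library below every control OL library, as did 8.64% of the 13447 genes compared; the members were chosen on this contrast, so nothing is read from that count. The fitted log2 fold changes (edgeR, SE in parentheses) were -2.40 (0.103) for Capn6, -2.32 (0.105) for Stk32a, -2.19 (0.151) for Prkg2, -2.33 (0.248) for Vgll2, -1.92 (0.121) for Elfn2, -0.91 (0.148) for Rab7b and -5.48 (1.14) for Rcan1. Without guide 1 OL library B they were -2.36, -2.27, -2.23, -2.45, -1.85, -0.99 and -5.32 in the same order of genes, so the fitted sizes changed little. The number of all genes called in OLs moved more, at 2337 without that library against 874 with it.

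**Figure D2:**
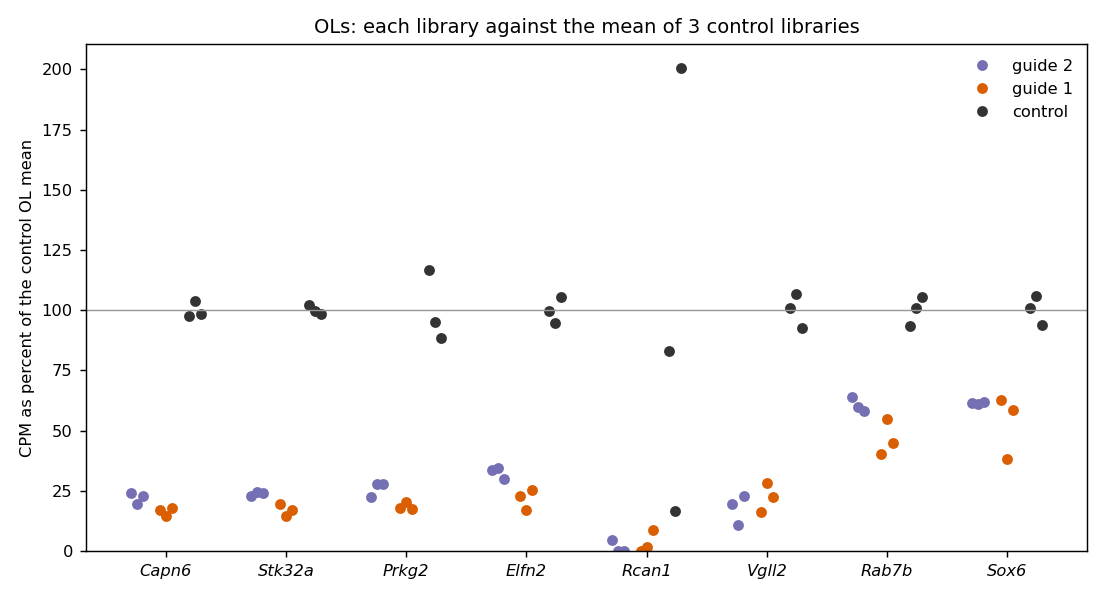
CPM of each OL library as a percent of the mean of the 3 control OL libraries, for guide 2, guide 1 and control. Capn6, Stk32a, Prkg2 and Vgll2 targeted means lie between 19.2% and 22.2%, Rab7b at 53.6% and Sox6 at 57.2%.

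The guides were compared with each other because their difference did not enter the mean fall on which the genes were chosen. The same OL libraries, with their spread, did enter that choice, so nothing is read from the count that follows. Guide 2 OLs lay above guide 1 OLs in every library for 5 of the 7 genes (Capn6, Stk32a, Prkg2, Elfn2 and Rab7b), against 7.21% of all genes, but none passed the test over all genes. The log2 difference of guide 2 over guide 1 was 0.58 (SE 0.149) for Elfn2, 0.48 (SE 0.187) for Prkg2, 0.47 (SE 0.131) for Stk32a, 0.42 (SE 0.129) for Capn6 and 0.37 (SE 0.178) for Rab7b, each with an edgeR adjusted p of 0.692. Vgll2 differed by -0.34 (SE 0.310, edgeR adjusted p = 0.708) and Rcan1 by -1.09 (SE 1.63, edgeR adjusted p = 0.806). At an unadjusted p under 0.05 stood 4 of the 7, and 773 of all 13447 genes. The background of this comparison was 0 genes called (0.0%) by edgeR and 29 by DESeq2, none of them a member. Elfn2 turned to -0.22 when transcript length entered the fit, so its direction between guides depends on that choice. Without guide 1 OL library B, Capn6, Stk32a, Elfn2, Prkg2 and Rab7b stood at 0.34, 0.36, 0.43, 0.54 and 0.50. Sox6 averaged 254.2 CPM in guide 2 OLs and 219.2 CPM in guide 1 OLs, a log2 difference of 0.21 (SE 0.166, edgeR adjusted p = 0.693), and of 0.01 without library B.

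In OPCs, libraries on which the genes were not chosen, 3 of the 7 were lower in targeted cells over both guides: Stk32a, Capn6 and Prkg2. Over all 13358 genes tested, 1.63% were called lower and 1.95% higher, 3.59% in all. The median log2 fold change of the 7 was -0.95, against -0.0049 over all genes. All 7 passed the filter on low counts, Rab7b through its targeted libraries alone and Rcan1 mainly through its controls, so no share of passing genes is read from them.

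Stk32a had 1.56, 1.86 and 1.32 CPM in guide 2 OPCs and 1.55 and 1.51 CPM in guide 1 OPCs, against 4.30, 5.0 and 6.09 CPM in control OPCs. It fell by 1.70 on the log2 scale (SE 0.222, edgeR adjusted p = 0.0057) and also with each guide alone, by 1.69 with guide 2 (SE 0.256, edgeR adjusted p = 0.0164) and by 1.71 with guide 1 (SE 0.295, edgeR adjusted p = 0.0221). Called lower were 0.719% of genes with guide 2 and 1.47% with guide 1, and Stk32a was the 1 member among them. Over both guides its call held when any single library was left out, but not without control libraries A and C together (edgeR adjusted p = 0.0918). The call for each guide alone was lost without control library B, without any library of its own guide, and when transcript length entered the fit, with edgeR adjusted p between 0.0553 and 0.190; where 1 guide 1 library was left, it was assumed to vary like the other groups.

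Capn6 had 0.960, 0.643 and 1.08 CPM in guide 2 OPCs and 0.516 and 1.02 CPM in guide 1 OPCs, against 2.58, 2.56 and 4.25 CPM in control OPCs. It fell by 1.88 (SE 0.352, edgeR adjusted p = 0.0264). These rest on 9 to 18 estimated counts in targeted OPC libraries and 36 to 60 in controls. The adjusted p rose past 0.05 when any library other than control A was left out, with values between 0.0517 and 0.106, and the sign held each time. Without control libraries A and C together it stood at -1.60 (edgeR adjusted p = 0.290).

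Prkg2 had 4.44, 4.86 and 3.31 CPM in guide 2 OPCs and 3.49 and 2.58 CPM in guide 1 OPCs, against 7.31, 5.68 and 8.07 CPM in control OPCs. It fell by 0.95 (SE 0.209, edgeR adjusted p = 0.0464), close to the threshold. The call was lost when any single library was left out, with adjusted p between 0.0728 and 0.169, and when transcript length was used (0.118). With both control libraries A and C left out it stood at -0.65 (edgeR adjusted p = 0.443), and 0 of the 7 genes were called by edgeR and 2 stood at an unadjusted p under 0.05.

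Elfn2 had 2.28, 1.29 and 1.69 CPM in guide 2 OPCs and 1.83 and 1.20 CPM in guide 1 OPCs, against 2.94, 3.12 and 3.04 CPM in control OPCs. The ranges did not overlap, yet the log2 difference of -0.87 (SE 0.275, edgeR adjusted p = 0.149) missed the threshold. Control OPC library B gave 50 estimated counts but 3.02 TPM (a length-corrected level on 1 common scale per library), against 41 and 43 counts with 0.483 and 0.455 TPM in control libraries A and C. The gap of this library to the other controls was thus far wider in TPM than in counts, and the size grew to -2.34 when transcript length entered the fit. Without control libraries A and C it stood at -0.92 (edgeR adjusted p = 0.448).

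In total 4 of the 7 genes (Stk32a, Capn6, Prkg2 and Elfn2) had every targeted OPC library below every control library, against 6.23% of genes. The other 3 overlapped. Rcan1 had 0.060, 0.289 and 2.32 CPM in guide 2 OPCs and 0.389 and 0 CPM in guide 1 OPCs, against 57.8, 1.52 and 0.837 CPM in control OPCs. Its log2 difference of -5.46 (SE 1.57, edgeR adjusted p = 0.112) rested on control library A, and was -1.41 without it (edgeR adjusted p = 0.625).

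Vgll2 had 0.780, 2.14 and 1.63 CPM in guide 2 OPCs and 1.38 and 2.16 CPM in guide 1 OPCs, against 2.65, 1.31 and 3.33 CPM in control OPCs. The log2 difference was -0.55, with an interval of -1.52 to 0.42 (edgeR adjusted p = 0.587), and it turned to 0.33 without control libraries A and C. Rab7b had 0.840, 0.357 and 0.602 CPM in guide 2 OPCs and 1.49 and 0.902 CPM in guide 1 OPCs, against 0.358, 0.562 and 0.496 CPM in control OPCs. Its log2 difference was 0.85, with an interval of -0.20 to 1.91 (edgeR adjusted p = 0.405), on 5 to 26 estimated counts a library, and it passed the filter through targeted libraries alone.

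**Figure D3:**
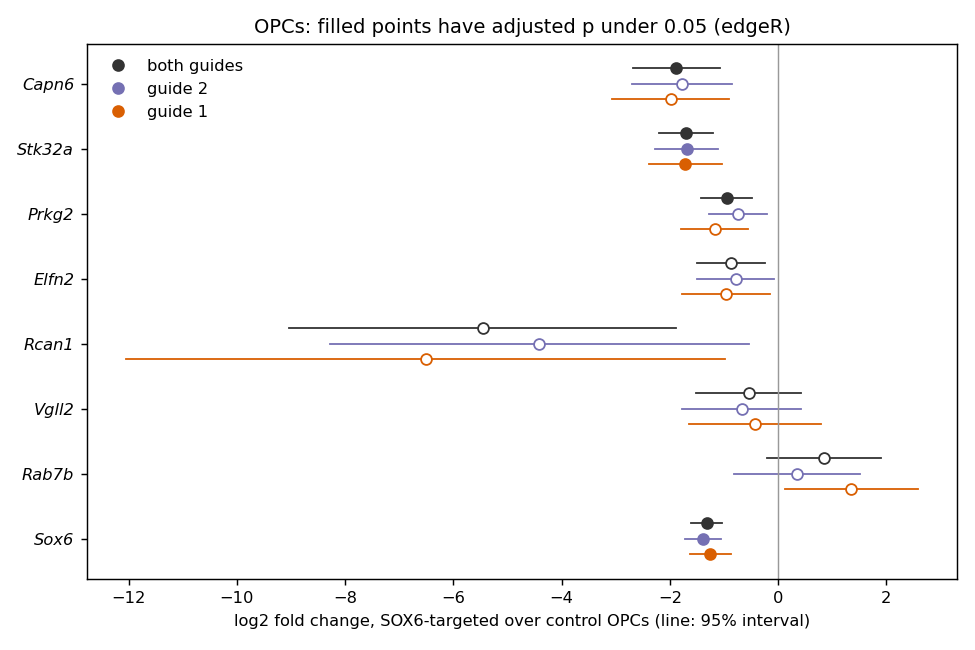
Log2 fold change of targeted over control OPCs with 95% intervals, for both guides together, guide 2 and guide 1; filled points have an edgeR adjusted p under 0.05. Stk32a and Sox6 are filled for each guide, Capn6 and Prkg2 for both guides together, and Rab7b lies right of 0.

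The authors' deposited table of OPCs gives log2 ratios as control over targeted, the opposite direction to the values above. It lists 6 of the 7 genes, without Rcan1. The authors' deposited table has Elfn2 at 2.35 (adjusted p = 0.00437), Stk32a at 2.16 (adjusted p = 1.06e-05) and Capn6 at 1.89 (adjusted p = 0.000475), and so calls 3 of the 7, where 4.51% of its 13541 genes are called. In the authors' deposited table Prkg2 stands at 0.80 (adjusted p = 0.0542), Vgll2 at 0.71 (adjusted p = 0.511) and Rab7b at -1.82 (adjusted p = 0.102). Elfn2 and Prkg2 thus change sides of the threshold between that table and the edgeR fit.

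Control OLs were above control OPCs in every library for 6 of the 7 genes, as were 30.0% of 12829 genes; the control OL libraries entered the choice of genes, so this is a description. The ratio of means was 25.9-fold for Elfn2, 22.1-fold for Rab7b, 15.2-fold for Capn6, 9.30-fold for Stk32a, 4.80-fold for Vgll2 and 2.50-fold for Prkg2. In targeted cells the OL mean was still 12.8-fold above the OPC mean for Elfn2, 10.8-fold for Capn6, 6.67-fold for Rab7b and 6.23-fold for Stk32a. For Vgll2 and Prkg2 it was 1.44-fold and 1.04-fold. Rcan1 did not separate the stages, because control OPC library A, at 57.8 CPM, was nearly as high as the highest control OL library.

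Ordered by mean, Capn6, Stk32a and Elfn2 ran alike: guide 1 and guide 2 OPCs overlapped at the bottom, then control OPCs, guide 1 OLs, guide 2 OLs and control OLs followed, each apart in range from the group below. Rab7b instead had control OPCs lowest, overlapping guide 2 OPCs. For Prkg2 the targeted groups of both stages overlapped one another in order of mean, below control OPCs and then control OLs.

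The genes nearest to each member were sought by Pearson r of log2(CPM + 1) over the 17 libraries among 10507 genes; these libraries share stage and guide, so high values are common and describe only likeness of pattern. Nearest to Capn6 were Vxn (r = 0.991), Stk32a (0.990) and C1ql1 (0.986), and nearest to Stk32a after Capn6 were Plppr1 (0.987) and Vxn (0.985). Elfn2 was nearest to Neu4, Mroh3 and Tmem132b (0.992 each), and Rab7b to Bcas1 (0.985), a gene of newly formed oligodendrocytes, Rassf10 (0.983) and Mycl (0.983). Vgll2 was nearest to Nt5e (0.927), Asic1 and Lima1, and Prkg2 to Cplx1 (0.924), Sertad4 and Igsf21. For Rcan1 the best value was 0.790 with Nefm. Among the 7 themselves the 21 pairs had a median r of 0.723, and the 15 pairs without Rcan1 a median of 0.839.

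Sorted cells gave a separate view of the stage difference, in TPM, for which depth is unknown. Tested with limma on log2(TPM + 1), Elfn2, Capn6 and Vgll2 were higher in sorted OLs than in sorted OPCs and Prkg2 was lower. Of 11902 genes tested, 26.3% were called higher and 33.8% lower, so a call is common in this comparison. All 7 passed the filter of at least 1 TPM in 3 libraries, but Rab7b and Rcan1 did so through sorted OLs alone, so their p-values are taken from a fit with no TPM filter, which admits every gene.

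Rab7b had 117.9, 117.5 and 120.4 TPM in sorted OLs, against 0.210, 0.250 and 0.237 TPM in sorted OPCs. The log2 difference was 6.60 (SE 0.0548, limma adjusted p = 1.24e-06 with no TPM filter). Elfn2 had 73.8, 66.1 and 66.2 TPM in sorted OLs, against 0.747, 1.43 and 2.73 TPM in sorted OPCs, a log2 difference of 4.79 (SE 0.271, limma adjusted p = 2.96e-05).

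Capn6 had 32.9, 43.7 and 48.6 TPM in sorted OLs, against 2.48, 1.53 and 2.44 TPM in sorted OPCs, a log2 difference of 3.76 (SE 0.196, limma adjusted p = 2.25e-05). Rcan1 had 3.97, 4.90 and 5.61 TPM in sorted OLs, and was at 0.585 and 0.607 TPM and listed at 0 in sorted OPCs, a log2 difference of 2.08 (SE 0.224, limma adjusted p = 0.00107 with no TPM filter). In these libraries, unlike the infected cultures, its replicates lay close together.

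Vgll2 had 2.92, 1.91 and 2.32 TPM in sorted OLs, against 1.65, 1.49 and 1.22 TPM in sorted OPCs, a log2 difference of 0.46 (SE 0.142, limma adjusted p = 0.0316). Stk32a had 4.93, 7.31 and 3.17 TPM in sorted OLs, against 2.47, 2.98 and 2.97 TPM in sorted OPCs, and its difference of 0.64 (SE 0.251, limma adjusted p = 0.0687) missed the threshold although the ranges were apart. Prkg2 had 1.54, 1.38 and 1.53 TPM in sorted OLs, against 3.15, 2.63 and 1.80 TPM in sorted OPCs, and fell by 0.49 (SE 0.159, limma adjusted p = 0.0367), the opposite side to the control cultures. The Vgll2 call was lost without sorted OPC library B or C or sorted OL library A or C, with adjusted p between 0.0692 and 0.0850. The Prkg2 call was lost without any library other than sorted OPC C, with adjusted p between 0.0756 and 0.10, and also with median-centred libraries (0.0762) and with no TPM filter (0.0563). Stk32a was called without sorted OL library C (0.0105) and with median-centred libraries (0.0496).

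**Figure D4:**
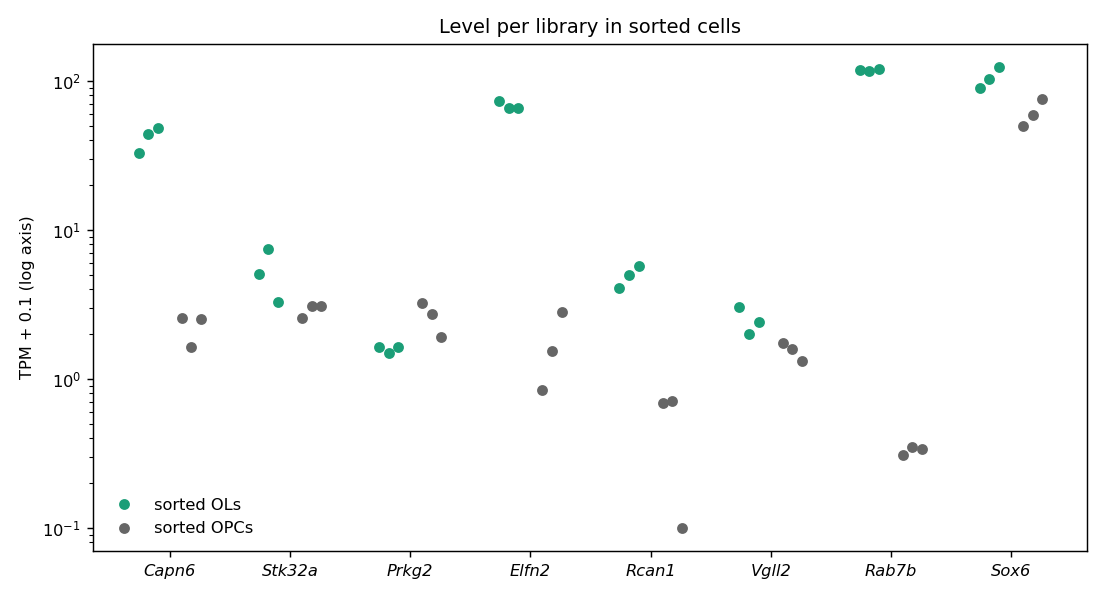
TPM + 0.1 on a log axis for each sorted library, sorted OLs left of sorted OPCs. Rab7b lies near 118 TPM in OLs and at most 0.250 TPM in OPCs, and Prkg2 is the 1 member of the 7 with OLs below OPCs.

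Relatives and partners of the 7 genes were called about as often as other genes. In all 2 of 65 were called in targeted OPCs (3.08%, against 3.59% of all genes) and 3 of 66 in targeted OLs (4.55%, against 6.5% of all genes, 3.13% higher and 3.37% lower). Without control OPC libraries A and C it was 2 of 68 in OPCs, against 1.1% of all genes, and without guide 1 OL library B it was 11 of 67 in OLs (16.4%, against 16.9% of all genes). Of the calpains and their inhibitor calpastatin, 0 of 7 tested genes were called in targeted OPCs and 0 of 9 in targeted OLs by edgeR. At an unadjusted p under 0.05 stood 0 and 5 of them, and DESeq2 called 0 and 2. The ubiquitous Capn2 differed by 0.09 (SE 0.0446) in OPCs and 0.16 (SE 0.0606) in OLs. Of the TEAD, VGLL and YAP genes 0 of 13 were called in OPCs and 0 of 11 in OLs by edgeR, where 5 and 0 stood at an unadjusted p under 0.05 and DESeq2 called 1 and 0. Vgll4, the widespread family member, differed by 0.16 (SE 0.0587) and 0.04 (SE 0.0777). Stk32b was the 1 tested relative of Stk32a, at -0.34 (SE 0.291) in OPCs and -0.71 (SE 0.301) in OLs, not called in either.

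Of the cGMP signalling genes 0 of 9 were called in OPCs by edgeR (2 at an unadjusted p under 0.05, 1 by DESeq2) and 1 of 9 in OLs. The gene called in OLs was Pde2a, a cGMP-stimulated phosphodiesterase, with 26.9 CPM on average in guide 2 OLs and 24.5 CPM in guide 1 OLs, against 38.1 CPM in control OLs, and it fell by 0.57 (SE 0.0922, edgeR adjusted p = 0.00682). It stood at -0.55 without guide 1 OL library B (edgeR adjusted p = 0.00156), but the call was lost without control OL library A (0.0591) or C (0.0516) and with transcript length (0.0707). Prkg1, the soluble relative of Prkg2, differed by 0.06 (SE 0.226) in OPCs and -0.06 (SE 0.542) in OLs.

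Of Elfn2's relative, receptors and phosphatase subunits, 1 of 5 fell in OPCs and 1 of 5 in OLs, both times Elfn1, the paralogue of Elfn2. Elfn1 averaged 23.8 CPM in guide 2 OPCs and 20.6 CPM in guide 1 OPCs, against 32.1 CPM in control OPCs, a fall by 0.51 (SE 0.0786, edgeR adjusted p = 0.0121). That call was lost without control OPC library B (edgeR adjusted p = 0.0586), without guide 1 OPC library A (0.0641), and without control libraries A and C (-0.57, 0.0868). In OLs it averaged 36.7 CPM in guide 2 OLs and 33.3 CPM in guide 1 OLs, against 57.2 CPM in control OLs, a fall by 0.71 (SE 0.0879, edgeR adjusted p = 0.00182), and stood at -0.68 without guide 1 OL library B (edgeR adjusted p = 0.000107).

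Of calcineurin and NFAT genes 0 of 13 were called in OPCs by edgeR (5 at an unadjusted p under 0.05, 1 by DESeq2) and 1 of 13 in OLs. Nfatc2, a calcineurin-dependent transcription factor, averaged 2.43 CPM in guide 2 OLs and 1.62 CPM in guide 1 OLs, against 4.79 CPM in control OLs, and fell by 1.27 (SE 0.217, edgeR adjusted p = 0.00899). It stood at -1.24 without guide 1 OL library B (edgeR adjusted p = 0.00569), but the call was lost without control OL library A (0.0522) or B (0.0706). The Rcan1 relatives Rcan2 and Rcan3 differed by -0.29 (SE 0.617) and -0.10 (SE 0.209) in OLs. Of late endosome and retromer genes 0 of 18 were called in OLs by edgeR (4 at an unadjusted p under 0.05, 1 by DESeq2) and 1 of 17 in OPCs, where Osbpl1a, a cholesterol sensor on late endosomes, rose by 0.53 (SE 0.064, edgeR adjusted p = 0.00448), and stood at 0.56 without control libraries A and C (edgeR adjusted p = 0.0414). Rab7, the widely expressed relative of Rab7b, differed by 0.12 (SE 0.0571) in OLs.

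In sorted cells, where calls are common, these lists gave 1 higher and 1 lower of 8 calpain genes, 4 and 4 of 10 TEAD genes, 2 and 3 of 5 cGMP genes, 2 and 0 of 4 ELFN partners, 4 and 3 of 12 calcineurin genes, and 12 higher and 3 lower of 17 late endosome genes. Some of these genes, such as Capn1 and Nfatc2, passed the TPM filter through sorted OLs alone, so nothing is read from the counts. Nfatc2 averaged 4.29 TPM in sorted OLs, against 0.35 TPM in sorted OPCs. Rab7 was higher in sorted OLs by 0.56 (SE 0.126, limma adjusted p = 0.0089).

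Markers of several cell types moved with the groups. Over all genes tested in OLs, 3.13% were called higher and 3.37% lower. The 12 oligodendrocyte markers summed to between 3896 and 4014 CPM in guide 2 OLs and between 3294 and 3512 CPM in guide 1 OLs, against 4623 to 4758 CPM in control OLs; of 11 tested, 4 were higher and 2 lower, and Mog was at 0 in guide 2 and control OLs. The 14 astrocyte markers summed to between 8878 and 9142 CPM in guide 2 OLs and between 8343 and 9435 CPM in guide 1 OLs, against 7365 to 7694 CPM in control OLs, with 1 of 13 called. Aldoc, the glycolytic enzyme aldolase C, rose by 0.57 (SE 0.115, edgeR adjusted p = 0.0197). It stood at 0.47 without guide 1 OL library B (edgeR adjusted p = 1.42e-05), but the call was lost without any 1 control or guide 2 OL library (0.0527 to 0.103). The 14 neuron markers summed to between 2310 and 2365 CPM in guide 2 OLs and between 1181 and 2217 CPM in guide 1 OLs, against 2495 to 2602 CPM in control OLs, with 3 of 12 lower and Syp at 0 in guide 2 OLs. The 6 progenitor markers summed to between 11329 and 11659 CPM in guide 2 OLs and between 9570 and 11378 CPM in guide 1 OLs, against 10627 to 10797 CPM in control OLs, with 3 of 6 lower. Among these Sox10, a lineage transcription factor, averaged 161.6 CPM in guide 2 OLs and 132.2 CPM in guide 1 OLs, against 265.6 CPM in control OLs, and fell by 0.86 (SE 0.0634, edgeR adjusted p = 0.000138). Although on the progenitor list, Sox10 was lower in control OPCs than in control OLs, at 29.2 CPM. The part of these cell types in the lower levels of the 7 genes was not tested.

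Vgll2, Capn6 and Prkg2 are also known from muscle and cartilage, so markers of those tissues were read too. The 16 skeletal muscle markers summed to between 5.10 and 8.05 CPM in guide 2 OLs and between 6.17 and 8.80 CPM in guide 1 OLs, against 4.96 to 7.67 CPM in control OLs, with Mymx and Myh3 at 0 in all 3 groups and 0 of 3 tested genes called by edgeR or DESeq2 and 0 at an unadjusted p under 0.05. The 12 cartilage markers summed to between 108 and 147 CPM in guide 2 OLs and between 103 and 167 CPM in guide 1 OLs, against 160 to 180 CPM in control OLs. Of 8 cartilage genes tested 3 fell in OLs, namely Matn1, Col11a2 and Acan, and 1 rose, namely Col9a1. Over all genes 3.37% were called lower and 3.13% higher. The collagen Col2a1 was at 0 in guide 2 and guide 1 OLs. Matn1, a cartilage matrix protein, averaged 1.08 CPM in guide 2 OLs and 0.987 CPM in guide 1 OLs, against 8.93 CPM in control OLs, and fell by 3.10 (SE 0.22, edgeR adjusted p = 0.000113), with -3.19 without guide 1 OL library B (edgeR adjusted p = 2.71e-05). Col9a1, which rose, averaged 15.3 CPM (SD 9.22) in guide 2 OLs and 18.8 CPM (SD 14.3) in guide 1 OLs, against 0.209 CPM in control OLs. Its log2 difference was 6.15 (SE 0.896), from uneven targeted libraries. Col9a1 passed the filter on low counts through those libraries alone, so no p-value is given for it. The Acan call was lost without control OL library B (edgeR adjusted p = 0.0564) and the Col11a2 call with transcript length (0.0546). The part of cartilage genes in these results was not tested.

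In OPCs the 12 oligodendrocyte markers summed to between 304 and 346 CPM with guide 2 and between 338 and 344 CPM with guide 1, against 266 to 321 CPM in control OPCs. Of 8 tested, 4 were higher and 1 lower, where 1.95% of all genes were called higher and 1.63% lower. The 14 astrocyte markers, with 3 of 13 higher and 1 lower, summed to between 1956 and 2030 CPM with guide 2 and between 2074 and 2124 CPM with guide 1, against 1752 to 1943 CPM in control OPCs. The 14 neuron markers, with 4 of 13 lower and 1 higher, summed to between 1203 and 1273 CPM with guide 2 and between 1314 and 1364 CPM with guide 1, against 1312 to 1622 CPM in control OPCs. Among them Tubb3, a neuronal tubulin, fell by 0.74 (SE 0.0939, edgeR adjusted p = 0.00522), and was at -0.66 without control libraries A and C. Stmn2 was the 1 called higher, by 3.52 (SE 0.523). It passed the filter on low counts through its targeted libraries alone, so nothing is read from that call. It averaged 1.05 CPM with guide 2 and 1.15 CPM with guide 1, against 0.089 CPM in control OPCs. The 6 progenitor markers summed to between 10361 and 10657 CPM with guide 2 and between 10789 and 10890 CPM with guide 1, against 9698 to 10703 CPM in control OPCs. Sox10, a gene higher in control OLs than in control OPCs, was the 1 of 6 called lower, by 0.97 (SE 0.114, edgeR adjusted p = 0.00356). Without control libraries A and C the calls were 0 of 13 for neuron, 1 of 13 for astrocyte, 1 of 9 for oligodendrocyte and 2 of 6 for progenitor markers, all of them lower. Of all genes 1.1% were called there. The part of these markers in the lower Stk32a, Capn6 and Prkg2 of OPCs was not tested.

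In sorted cells, the 12 oligodendrocyte markers summed to between 29441 and 29922 TPM in sorted OLs, against 81.0 to 142 TPM in sorted OPCs. Markers of other cells also differed there, where 26.3% of all genes tested were called higher and 33.8% lower. The 14 astrocyte markers summed to between 2121 and 4225 TPM in sorted OLs, against 614 to 685 TPM in sorted OPCs, with 5 of 12 higher and 3 lower. Apoe, a lipid carrier, was higher in sorted OLs by 3.99 (SE 0.456, limma adjusted p = 0.000527), whereas the glutamate transporter Slc1a3 was lower by 2.80 (SE 0.239, limma adjusted p = 0.000155). Gfap, an astrocyte filament protein, averaged 193.2 TPM (SD 158.3) in sorted OLs, against 0.252 TPM in sorted OPCs. Gfap passed the TPM filter through sorted OLs alone, so no p-value is given for it. The 12 cartilage markers summed to between 522 and 636 TPM in sorted OLs, against 31.7 to 33.6 TPM in sorted OPCs. Of 6 tested, 6 were higher, but Matn1, Col11a2 and Acan passed the TPM filter through sorted OLs alone. Nothing is read from that count. The 14 neuron markers summed to between 436 and 494 TPM in sorted OLs, against 341 to 428 TPM in sorted OPCs, with 2 of 11 higher and 4 lower. The 6 progenitor markers summed to between 1719 and 1752 TPM in sorted OLs, against 1804 to 2201 TPM in sorted OPCs, with 5 lower. The 1 higher was Sox10, by 4.01 (SE 0.168, limma adjusted p = 1e-05). The part of these markers in the stage differences of the 7 genes was not tested.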

How the data were processed

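Poly(A) RNA libraries were made with a kit without strand marking, per the labels' protocols. Per the submitters' processing notes, Salmon 0.14.1 quantified transcripts on mm10 and DESeq2 was used. For the SOX6 experiment the authors deposited tables of estimated counts, 1 for OPCs and 1 for OLs. The authors also deposited TPM for all libraries, and log2 ratios with adjusted p-values.

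Counts were rounded, filtered with filterByExpr (minimum count 10, total 15), TMM-scaled and tested per stage with edgeR 4.0.16 in R 4.3.3 (quasi-likelihood F test, two-sided, 1 coefficient per group, Benjamini-Hochberg over all genes tested, threshold 0.05). Printed CPM came from 1 TMM scaling of all 17 libraries. For sorted cells, limma 3.58.1 was applied to log2(TPM + 1) of genes with at least 1 TPM in 3 libraries; this scale understates the change of low genes. SE is the log2 change over the root of F, and intervals are 95%. The fits were tested on simulated counts. Alternatives included DESeq2 1.42.0.

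The genes and lists were chosen with earlier results of these data known. Named genes are the 7 members, Sox6, list genes that passed a test or are a direct paralogue or partner, and for each member the 3 genes of highest Pearson r. Libraries are named by the tables' column letters. The deposited symbols held 77.6% to 79.6% of the full TPM scale. The sorted table holds 26 dates where gene symbols should stand.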

Additional observations from a re-analysis of the deposited data

Results flagged for a closer look

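Prkg2 differed between stages in opposite directions in the cultures and in the sorted cells. In the cultures its log2 ratio of mean CPM, control OLs over control OPCs, was 1.32, with every control OL library above every control OPC library. In the sorted cells every OL library lay below every OPC library. The difference between the cultures and the sorted cells was not tested, and the sorted OLs were selected for O1 whereas the culture OLs were not sorted.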

How the results depend on the processing

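No paired analysis was possible because the tables' columns carry letters that no label ties to the replicate numbers. Low counts limit Rab7b and Capn6 in OPCs, and Rcan1 in OPCs rests on control library A; the cause was not tested. Numbers of genes called moved widely. In OPCs over both guides 479 genes were called, against 816 by DESeq2, 239 with transcript length in the fit, and 149 to 550 with 1 library left out. For guide 1 the count was 372, against 801, 167 and 7 to 614 under the same changes. For guide 2 it was 273, against 518, 112 and 78 to 254. In OLs targeted against control it was 874, against 1500, 582 and 353 to 2337, and for guide 2 against guide 1 it was 0, against 29 by DESeq2 and 0 to 1 with 1 library left out.

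Members called in OPCs numbered 3 over both guides, 4 with no count filter, and 1 to 2 with 1 library left out. For each guide alone the number was 1, but 3 for guide 1 and 2 for guide 2 by DESeq2, 0 with transcript length, and 0 to 1 with 1 library left out. An alternative chosen after seeing the data left out control OPC libraries A and C together. It called 152 genes over both guides, 166 for guide 1 and 125 for guide 2, with 0 members in each, and it reversed Vgll2 to 0.33, 0.46 and 0.20. In sorted cells 6 members were called, counting Rab7b and Rcan1, and 2 to 5 with 1 library left out; Rab7b and Rcan1 then missed the 3 library filter whenever a sorted OL library was left out.

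Between guides in OLs, Elfn2 turned to -0.22 with transcript length, and Rcan1 ranged from -6.92 to 0.95 with 1 library left out. Control OLs over control OPCs ranged from -0.45 to 4.65 for Rcan1 with 1 library left out. The direction of Capn6, Stk32a and Prkg2 held under every alternative run in OPCs and in OLs.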
